A study of Arabidopsis thaliana with 36 samples.

Results

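Transcript levels of whole hda9-1 seedlings of Arabidopsis thaliana were compared between an age of 7 days (7 d) and an age of 2 days (2 d), both at 22 °C. The genes described are the 20864, of 33540 in the files, that had a normalised count of at least 10 in 3 or more of the 6 libraries (3 at 7 d and 3 at 2 d). The line hda9-1 carries a mutation in HDA9 in the Col-0 background, and WT is Col-0 without it. The whole study had 36 libraries in 12 groups of 3, made of hda9-1, pif4-2 and WT at 7 d or 2 d and at 27 or 22 °C. WT at 22 °C, with 3 libraries at 7 d and 3 at 2 d, was used to ask whether a gene changed differently with age in hda9-1. Seedlings grew on agar plates in days of 8 h light and 16 h dark and were harvested as the lights came on, so every value describes 1 time of day. Each library was made from the combined RNA of 3 batches of seedlings, and p-values therefore measure the spread between such pools. A lower value in whole seedlings can stand for fewer cells of a type or for less RNA per cell, and these cannot be told apart here. The age is the label's, and whether hda9-1 and WT of the same age had reached the same stage was not tested.

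HDA9 is a histone deacetylase, an enzyme that removes acetyl groups from histones and is mostly tied to lower transcription. Arabidopsis plants that lack it are known for faster germination, for early flowering in short days and for a weak growth response to warmth. A seedling first lives on the oil and storage protein of the seed: fatty acids are broken down in peroxisomes, the glyoxylate cycle turns the products into precursors of sugar, and the cotyledons green until photosynthesis feeds the plant.

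The 6 hda9-1 libraries held 31861787 to 53075211 reads in genes, and the 6 WT libraries brought the lowest depth to 21906850. Values are normalised counts, in which the authors scaled the reads of each gene by the size factor of its library. A change is the log2 ratio of 7 d to 2 d, fitted by limma on log2(normalised count + 1) and given ± its standard error; the added 1 makes it too small where counts are low. A gene was called where the limma p, adjusted over all genes tested, was under 0.05. In a principal component analysis of the 12 libraries, the first component held 85.7% of the variance and parted the ages. On it the hda9-1 libraries stood at 95.3, 97.8 and 97.8 at 7 d and at -90.7, -75.2 and -66.8 at 2 d, and the WT libraries at 91.6, 94.1 and 94.3 at 7 d and at -119, -120.0 and -98.9 at 2 d. All 3 hda9-1 libraries of 2 d thus lay nearer to the 7 d libraries than any WT library of 2 d did.

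HDA9 itself (AT3G44680), the mutated gene, had 68.7, 55.5 and 47.6 normalised counts in the hda9-1 libraries at 7 d and 26.2, 27.6 and 26.2 at 2 d. WT seedlings had 510.2, 508 and 510.0 at 7 d and 565, 576 and 506 at 2 d, so every hda9-1 library lay far below every WT library. The remaining HDA9 transcript was higher at 7 d in hda9-1, by 1.06 ± 0.19 (limma adjusted p = 4.43e-04), and the WT change was -0.11 and not called. HDA10 and HDA17, close relatives that can share reads with HDA9, had at most 1.89 in any of the 12 libraries.

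Between the ages 7831 genes were higher at 7 d in hda9-1 (37.5% of those tested) and 8027 were lower (38.5%), so 76% of all genes tested were called. Of these, 2782 were higher and 2598 lower by at least 1 on the log2 scale. The median change of all genes tested was -0.0049. All 3 libraries of 7 d lay above or below all 3 of 2 d for 79.2% of the genes tested in hda9-1. In the same way 8320 genes were higher in WT at 7 d (39% of 21331 tested) and 8485 lower (39.8%), 78.8% in all. Over the 20864 genes tested in both genotypes, 6721 were higher at 7 d in both, which is 85.8% of the calls in hda9-1 and 82.4% of those in WT. A further 6826 were lower in both, 85% of the hda9-1 calls and 81.8% of the WT calls, and 333 were called in opposite directions. The change itself differed between the genotypes for 6097 genes (28.6% of 21331). It was higher in hda9-1 for 2605 (12.2%) and lower in hda9-1 for 3492 (16.4%), where "lower" means a smaller rise or a larger fall than in WT. With such shares called, a count within a gene list is read below against them. A count near these shares is not read as a result about the list. Counts of members higher or lower in hda9-1 than in WT at an age are signs of differences of means and not calls. Over all 21331 genes tested, hda9-1 was higher than WT for 51.8% at 2 d and for 10045 at 7 d.

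**Figure D1:**
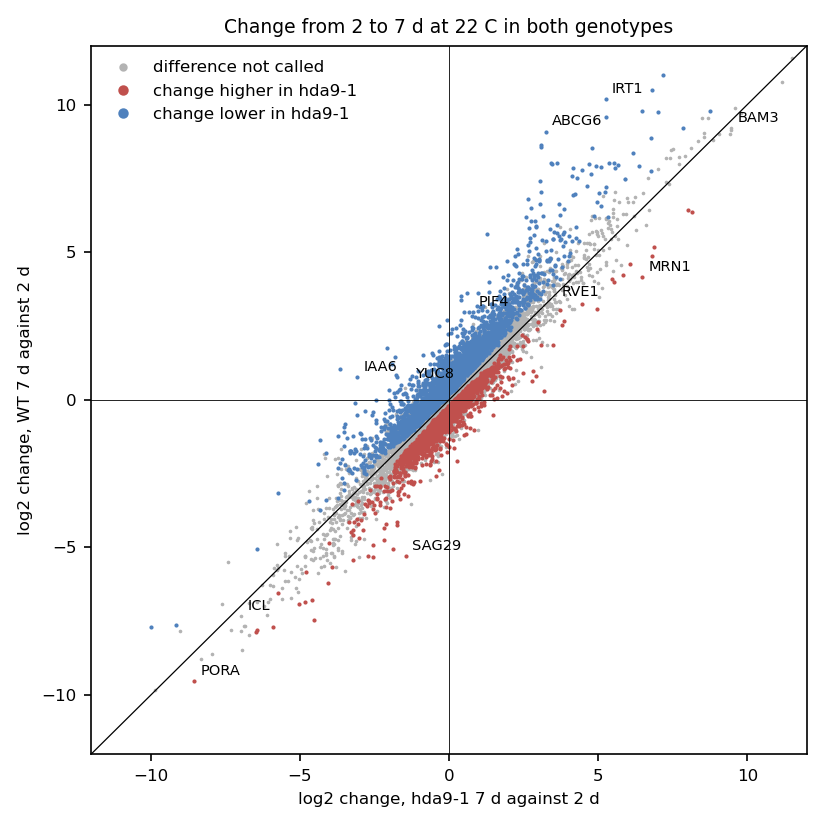
Each point is 1 of the 20864 genes tested in both genotypes, with its log2 change from 2 d to 7 d in hda9-1 on the horizontal axis and in WT on the vertical axis. Red and blue points have a called difference of change, grey points have not, and the line marks equal change. Most points follow the line from lower left (PORA, ICL) to upper right (BAM3), while ABCG6 and IRT1 lie above it and MRN1 and SAG29 below it.

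Among genes with a mean of at least 50 and no overlap between the ages, the 10 largest rises included 4 genes annotated as lipid-transfer protein relatives and a beta-amylase. 3 of the lipid-transfer relatives, AT4G22485, AT4G22505 and AT4G22513, are neighbours on chromosome 4, and similar copies of this kind can share reads. AT4G22505 had 3595, 2601 and 2315 normalised counts at 7 d and 0.845, 0 and 0 at 2 d. AT4G22513 had 816, 702 and 818 at 7 d and no read at 2 d, at least 268-fold higher when 2 d is set to 3 reads per library. AT3G05727, annotated as a relative of a pollen coat protein, had 2839.5, 3013 and 2755 at 7 d and no read at 2 d, at least 988-fold higher on the same footing. All 3 genes stood at 702 or more in each 7 d library and at 0.845 or less in each 2 d library. BAM3 (AT4G17090), the chloroplast beta-amylase that breaks down leaf starch at night, had 10391, 10609 and 10933 at 7 d against 10.14, 13.8 and 19.96 at 2 d, a change of 9.46 ± 0.18 (limma adjusted p = 2.15e-10). The others were AT4G22485 (9.78), AT3G58550 (9.43), AT2G15020 (9.47), MLP328 (9.04), the receptor kinase RK2 (8.86) and AT2G33850 (8.76). No difference of change from WT was called for 9 of the 10, and for AT2G33850 it was -1.01 and called.

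The 10 largest falls held genes of cell wall, lipid and greening. AT2G47780, annotated as a rubber elongation factor protein of the kind found on lipid droplets, had 4.46, 9.45 and 50.7 normalised counts at 7 d and 16661, 14513 and 12959.9 at 2 d. GH9B15, a glycosyl hydrolase of the endoglucanase family, had 0, 2.36 and 16.1 at 7 d and 3479, 3084 and 4233 at 2 d. PORA, the protochlorophyllide oxidoreductase that works while seedlings first green, had 125, 148 and 101 at 7 d and 52942, 55522 and 34089.8 at 2 d, a change of -8.55 ± 0.18 (limma adjusted p = 2.46e-10). Between the highest 7 d library and the lowest 2 d library the gap was 256-fold, 191-fold and 231-fold for these 3 genes. The remaining falls were AT5G44440 (-9.14), HEC2, a bHLH transcription factor (-9.02), the F-box gene AT1G20790 (-8.33), CYP96A3 (-7.94), CYP96A11 (-7.61), the GDSL lipase gene AT2G42990 (-7.42) and the glycerol-3-phosphate transporter gene G3Pp2 (-7.32). The change of AT5G44440, annotated as a berberine family protein, was lower in hda9-1 than in WT (difference -1.50 ± 0.40), and that of PORA was higher (0.97 ± 0.26). For AT2G47780 the difference was -2.29 ± 0.77, but that call was lost in 10 of the 12 fits that left out 1 library.

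**Figure D2:**
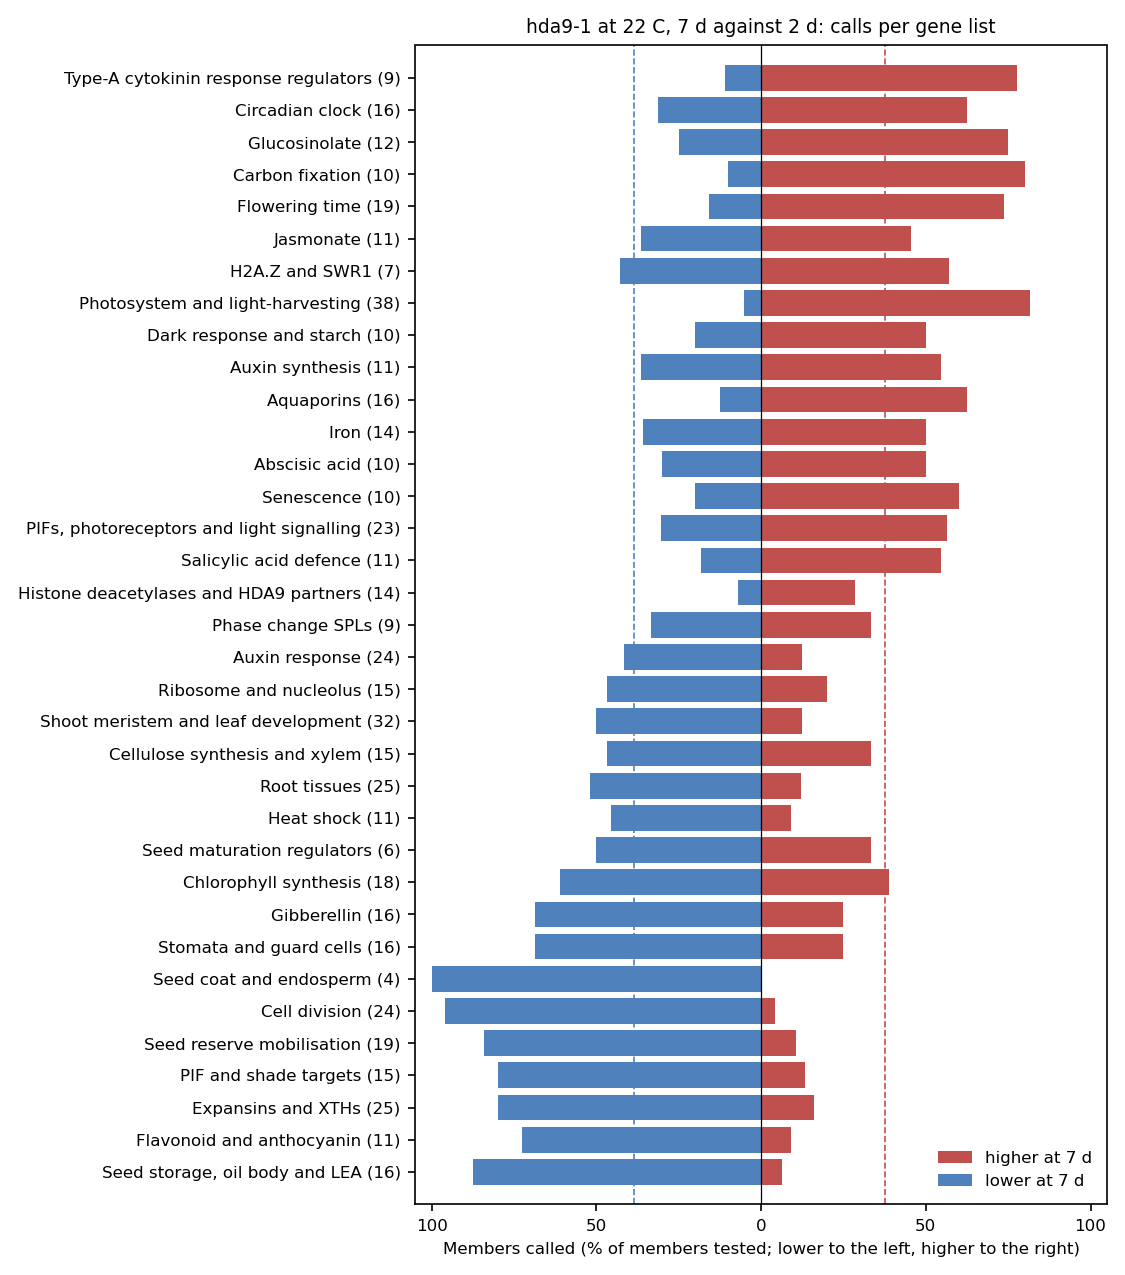
For each of 35 gene lists, the bar to the right gives the percentage of its tested members called higher at 7 d in hda9-1 and the bar to the left the percentage called lower, with the number tested in parentheses; lists are ordered by their median change. The dashed lines mark the shares over all genes, 37.5% higher and 38.5% lower. Photosystem, carbon fixation and type-A response regulator genes reach furthest to the right, and cell division, seed storage and seed reserve genes furthest to the left among lists of more than 4 genes.

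Genes of seed storage proteins, oil bodies and late embryogenesis abundant (LEA) proteins were lower at 7 d. Of 21 members of this list 16 were tested, 14 were lower, 1 was higher and the median change was -3.35. Of the 16 tested, 13 reached 10 in every library of 2 d only and so passed the filter through the age at which they were high, and their count is a description. The RY element (CATGCA on either strand) is a known binding site of the seed B3 factors in Arabidopsis. It occurred in the 250 bases before the annotated start of 10 of the 16 tested members (62.5%), against 7.79% of all 20229 tested genes with such a window. That share covers the same filtered members and is a description as well. The RY element also stood before 6 of 16 genes of aquaporins (37.5%), a list of water channels with 10 members higher at 7 d and 2 lower. Among genes with a window, the share was 21.7% in the 309 called lower with a log2 change of at least 3 in size. These 309 include seed storage list members such as OLEO3. The share was 12.1% in the 365 called higher by as much. 3 windows of the seed storage list are shown because their genes stand for oil body, globulin and albumin, with the RY element in capitals (TAIR10.1, 5′ to 3′ on the gene's strand). They are OLEO3 (chr5:20819818-20820067, + strand), CRC (chr4:14087306-14087555, + strand) and SESA5 (chr5:22239188-22239437, - strand).
OLEO3: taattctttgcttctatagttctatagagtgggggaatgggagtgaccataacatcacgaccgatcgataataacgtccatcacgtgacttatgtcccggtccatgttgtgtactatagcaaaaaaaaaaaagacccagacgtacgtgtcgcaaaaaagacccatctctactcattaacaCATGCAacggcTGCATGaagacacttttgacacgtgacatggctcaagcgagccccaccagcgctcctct
CRC: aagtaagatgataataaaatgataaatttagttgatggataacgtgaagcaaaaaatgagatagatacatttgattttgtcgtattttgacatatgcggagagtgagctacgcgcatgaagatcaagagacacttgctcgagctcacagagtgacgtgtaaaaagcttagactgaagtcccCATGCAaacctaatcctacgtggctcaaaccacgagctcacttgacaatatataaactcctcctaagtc
SESA5: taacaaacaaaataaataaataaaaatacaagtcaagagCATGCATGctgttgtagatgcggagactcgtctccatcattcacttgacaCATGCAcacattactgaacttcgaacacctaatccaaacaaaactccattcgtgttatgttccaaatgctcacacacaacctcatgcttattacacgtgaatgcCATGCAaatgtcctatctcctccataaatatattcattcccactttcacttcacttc

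OLEO3 encodes an oleosin that coats oil bodies and had 3.57, 4.72 and 5.37 normalised counts at 7 d and 324, 344 and 299 at 2 d in hda9-1, a change of -5.87 ± 0.19 (limma adjusted p = 2.45e-09). CRC encodes a cruciferin, the storage globulin of the seed, and had 1.79, 3.54 and 16.1 at 7 d and 150.4, 122 and 84.8 at 2 d (-4.28 ± 0.55). SESA5 encodes a storage albumin and had 4.46, 2.36 and 20.7 at 7 d and 75.2, 61.0 and 66.1 at 2 d (-3.21 ± 0.55). The ages did not overlap for these 3 genes, and replicate 3 was the highest 7 d library in each. CRA1, another cruciferin, was less even at 7 d, with 114, 4.72 and 14.6 against 368, 535 and 152 at 2 d (-3.84 ± 0.88); replicate 1 stood above the other 7 d libraries. EM1, a LEA protein, had 0.893, 2.36 and 3.07 at 7 d and 73.5, 54.5 and 48.7 at 2 d (-4.32 ± 0.35). RAB18, a dehydrin that also responds to abscisic acid, was the exception, with 199.96, 155 and 246 at 7 d and 140.2, 117 and 93.6 at 2 d (0.76 ± 0.19).

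At 2 d OLEO1 and OLEO3 were lower in every hda9-1 library than in every WT library. OLEO1, another oleosin, had 5.36, 3.54 and 11.5 normalised counts at 7 d and 28.7, 20.3 and 27.4 at 2 d in hda9-1, against 1.36, 7.55 and 0 at 7 d and 80.7, 67.3 and 130.2 at 2 d in WT. Its fall was smaller in hda9-1, by 3.17 ± 0.86 (limma adjusted p = 0.016). For the list as a whole, the change was higher in hda9-1 for 4 of 18 members tested and lower for 1, against 12.2% and 16.4% of all genes. The count of 4 fell to 1 without replicate 2 or 3 of hda9-1 or replicate 2 of WT at 2 d, and to 2 without replicate 1 of hda9-1 at 7 d, replicate 1 or 3 of WT at 7 d or replicate 1 of WT at 2 d. No member had a lower change without replicate 2 of hda9-1 at 7 d, replicate 2 or 3 of WT at 7 d or replicate 2 of WT at 2 d. OLEO1 kept its call in every fit that left out 1 library. OLEO3 had 17.7, 17.0 and 15.8 at 7 d and 928, 1009 and 822 at 2 d in WT, so it was higher in WT at both ages and its difference of change (-0.19 ± 0.21) was not called; with a pseudocount of 8 the difference was 0.50 and called. Leaving out any 1 of the 2 d libraries of hda9-1 left 11 members testable, because the filter then failed at this low level, and 8 or 9 of them lower.

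The enzymes that turn oil into sugar were lower too: 16 of the 19 members were lower at 7 d in hda9-1, 2 were higher, and the median change was -1.14. ICL, isocitrate lyase of the glyoxylate cycle, had 1571, 1069 and 1269 normalised counts at 7 d and 184739, 155593 and 147083 at 2 d, a change of -6.97 ± 0.13 (limma adjusted p = 2.15e-10). MLS, malate synthase of the same cycle, had 726, 644 and 705 at 7 d and 50169.7, 33065 and 30912 at 2 d (-5.75 ± 0.15). Between the highest 7 d library and the lowest 2 d library the gap was 93.6-fold for ICL and 42.6-fold for MLS. PCK1, the carboxykinase that commits carbon to sugar synthesis, had 12103, 12025 and 12491 at 7 d and 41650.5, 35667 and 33458 at 2 d (-1.59 ± 0.082). MFP2, a multifunctional enzyme of beta-oxidation, changed by -2.20 ± 0.12. The members that rose were PMDH2, a peroxisomal malate dehydrogenase that also serves photorespiration (1.88 ± 0.081), and ACX4, a short-chain acyl-CoA oxidase (0.41 ± 0.071), while SDP1, the oil lipase, changed by 0.041 ± 0.049 and was not called. In WT, ICL changed by -7.32 and MLS by -6.56, and 15 of the 19 members had no called difference of change, while 2 had a higher and 2 a lower change in hda9-1. Leaving out 1 library gave 1 to 8 higher and 0 to 2 lower, the 8 without replicate 3 of WT at 2 d. PCK1 fell less in hda9-1 than in WT, by 0.65 ± 0.17, and so did MLS, by 0.81 ± 0.25, although the call for MLS was lost in 8 of 12 fits that left out 1 library.

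The regulators of seed maturation were mostly close to the detection limit. Of 10 members 6 were tested, 3 were lower, 2 higher, and the median change was -0.74, also with ABI4 at its bound. Without any 1 library of 7 d, 1 was higher. ABI3, the B3 factor that drives seed genes, had 82.1, 39.0 and 51.4 normalised counts at 7 d and 310.0, 249 and 267 at 2 d (-2.30 ± 0.23). ABI4, a factor of abscisic acid signalling in seeds, had no read at 7 d and 51.5, 27.6 and 19.96 at 2 d, at least 11.6-fold lower against 3 reads per library. ABI5, a bZIP factor of the same pathway, changed by -1.38 ± 0.38. DOG1, a dormancy gene, had 24.1, 15.4 and 27.6 at 7 d and 2.53, 2.44 and 4.99 at 2 d and so rose (2.45 ± 0.37), and VAL1, a repressor of seed genes, rose by 0.43 ± 0.051. All 4 tested genes of the list of seed coat and endosperm were lower. Among them EPR1, an extensin-like gene of the endosperm, had 18.7, 3.54 and 18.4 at 7 d and 374, 231 and 241 at 2 d in hda9-1, against 8.19, 7.55 and 0 at 7 d and 831, 817 and 626 at 2 d in WT. Each 2 d library of hda9-1 lay under each of WT, and the difference of change was 2.94 ± 1.01, a call lost in 7 of 12 fits that left out 1 library.

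**Figure D3:**
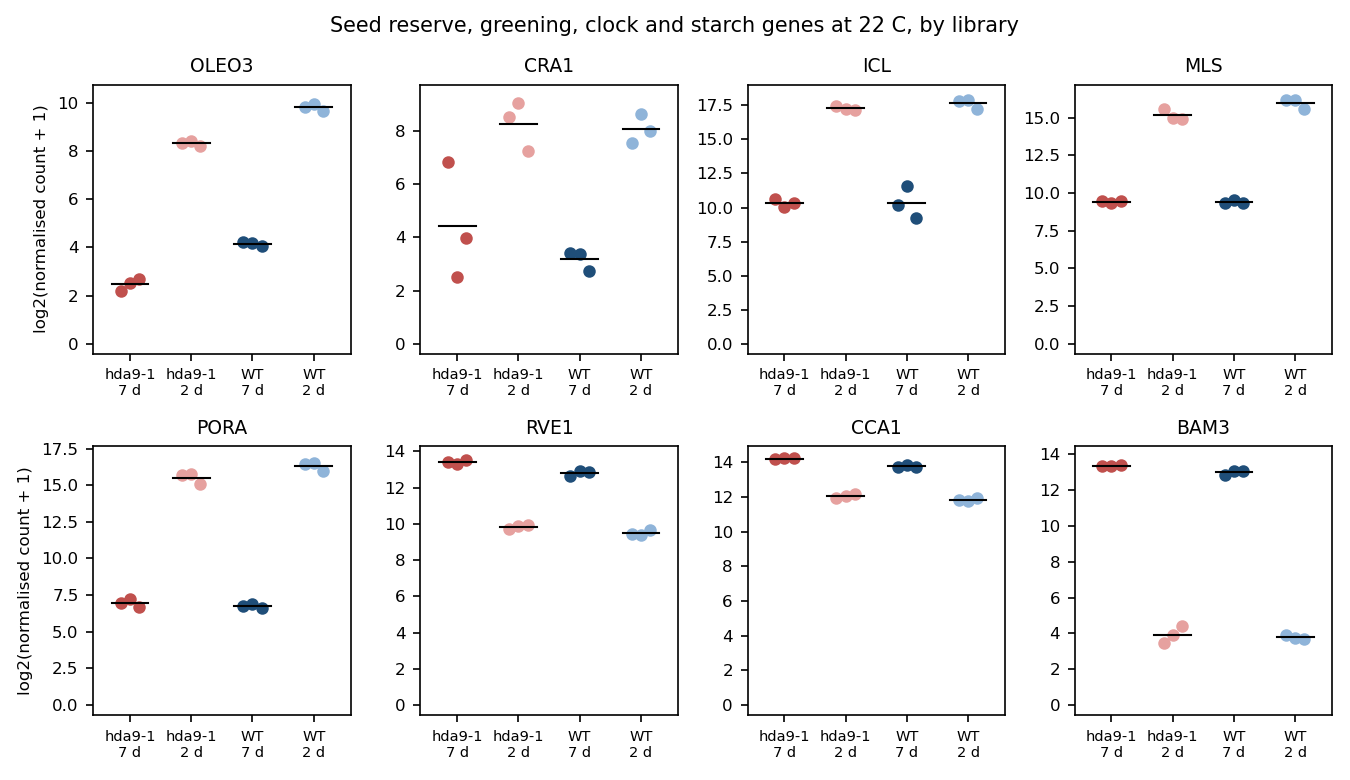
Points give log2(normalised count + 1) of 8 genes in the 3 libraries of each group (hda9-1 at 7 d and 2 d, then WT at 7 d and 2 d), and the bars give group means. OLEO3, CRA1, ICL, MLS and PORA are lower at 7 d in both genotypes, and RVE1, CCA1 and BAM3 are higher. CRA1 is uneven among the 7 d libraries of hda9-1, with replicate 1 at 114.

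Nuclear genes of the photosystems and their light-harvesting antennae were higher at 7 d, and by less than in WT. In hda9-1, 31 of the 38 members were higher and 2 were lower, against 37.5% and 38.5% of all genes, and the median change was 0.48. Some of these calls were lost when 1 library was left out, among them LHCB3 in 3 fits and PSAD1 in 5. LHCB2.1, an antenna protein of photosystem II, had 85251, 81683 and 83930.0 normalised counts at 7 d and 35038, 45008 and 45866 at 2 d in hda9-1, against 110468, 113938 and 118052 at 7 d and 18825, 17973 and 26349.7 at 2 d in WT. The hda9-1 libraries were thus above WT at 2 d and below WT at 7 d, with no overlap at either age. Its change was 1.00 ± 0.11 in hda9-1 and 2.46 in WT, a difference of -1.46 ± 0.19 (limma adjusted p = 3.09e-04). LHCB4.2, a minor antenna protein, changed by 1.11 ± 0.11 in hda9-1 and 2.02 in WT, and PSAN, a subunit of photosystem I, by 0.99 ± 0.12 and 1.85. The 2 members that fell were LHCB4.3, a stress-related antenna form, with 162, 126 and 135 at 7 d and 617, 750.2 and 759.9 at 2 d, and PETE1, a plastocyanin (-0.27 ± 0.068). In WT 37 members were higher and the median was 1.32. The change was lower in hda9-1 for all 38 members, against 16.4% of all genes. All 38 were higher in hda9-1 than in WT at 2 d, by a median of 0.50, and all 38 were lower at 7 d, by a median of 0.28 (log2). The LHCB1 genes, CAB1 to CAB3 among them, are near-identical and can share reads.

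Carbon fixation genes were higher as well, with 8 of 10 members higher at 7 d in hda9-1, 1 lower and a median of 0.75. GAPA, a glyceraldehyde phosphate dehydrogenase of the Calvin cycle, had 148955, 150383 and 157806 normalised counts at 7 d and 56247, 68931 and 69752 at 2 d (1.24 ± 0.11), and the change was 1.82 in WT. RCA, the Rubisco activase, changed by 0.95 ± 0.15 in hda9-1 and 1.79 in WT. Among the small subunits of Rubisco, which are similar enough to share reads, RBCS1B rose (1.41 ± 0.07) and RBCS3B fell (-0.70 ± 0.14). The change was lower in hda9-1 than in WT for 7 of the 10, against 16.4% of all genes. Of 18 members of chlorophyll synthesis 7 were higher, near the 37.5% of all genes, and 11 were lower, against 38.5% of all genes. HEMA1, the entry enzyme, rose by 1.12 ± 0.078, and CRD1, a cyclase subunit, by 0.92 ± 0.092. PORB, a relative of PORA, had 8305, 8077 and 8119 at 7 d and 62240.1, 61999.5 and 43532 at 2 d (-2.76 ± 0.12), and PCB2, a vinyl reductase, fell by 1.96 on the log2 scale. In WT PORB had 8393, 8489.7 and 7734 at 7 d and 108259, 114420.0 and 77895 at 2 d, and its fall was smaller in hda9-1, by 0.83 ± 0.20.

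Of 10 genes of starch turnover and of the response to darkness, 5 were higher at 7 d in hda9-1 and 2 were lower. GBSS1, the starch synthase of granules, had 6127, 6477 and 6125 normalised counts at 7 d and 740.0, 984 and 933 at 2 d (2.83 ± 0.093), and STP1, a sugar importer, changed by 1.43 ± 0.086. DPE2, a glucanotransferase of night-time maltose use, and SEX4, a glucan phosphatase, were lower (-0.74 and -0.68). DIN1, a dark-inducible gene, had 17345, 16566 and 18634 at 7 d and 13723, 16750.1 and 17321 at 2 d in hda9-1, with overlapping ages and no call, against 24928, 26957 and 23123 at 7 d and 9474, 9630.0 and 12181 at 2 d in WT, where it rose (1.27).

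Of 16 tested clock genes, read at lights on, 10 were higher at 7 d in hda9-1 and 5 lower, and the median change was 1.12. The G-box (CACGTG, the same on both strands) is bound by bHLH and bZIP factors such as PIFs and HY5, and it stood in the 250 bases before the start of 6 of the 16 (37.5%), against 7.46% of all 20229 tested genes with a window and 62.5% of the seed storage list. The windows of 2 morning genes that hold it are shown with the G-box in capitals (TAIR10.1, 5′ to 3′ on the gene's strand), namely CCA1 (chr2:19245341-19245590, + strand) and RVE1 (chr5:5692993-5693242, - strand).
CCA1: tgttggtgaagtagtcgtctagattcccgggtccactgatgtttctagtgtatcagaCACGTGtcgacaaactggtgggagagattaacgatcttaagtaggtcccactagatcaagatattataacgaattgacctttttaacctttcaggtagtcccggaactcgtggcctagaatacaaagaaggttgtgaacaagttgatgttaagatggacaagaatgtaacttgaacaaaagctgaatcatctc
RVE1: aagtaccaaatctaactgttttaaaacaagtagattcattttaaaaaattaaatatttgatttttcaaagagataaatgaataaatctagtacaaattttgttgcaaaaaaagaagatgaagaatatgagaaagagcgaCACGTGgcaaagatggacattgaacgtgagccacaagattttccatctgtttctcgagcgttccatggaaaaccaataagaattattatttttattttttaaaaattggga

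RVE1, a MYB-like factor that links the clock to auxin, had 10760.1, 9904 and 11847 normalised counts at 7 d and 828, 950.1 and 993 at 2 d (3.55 ± 0.082, limma adjusted p = 4.49e-10). CCA1, a core morning repressor, had 18341, 19205 and 19326 at 7 d and 3869.7, 4243 and 4635 at 2 d (2.16 ± 0.069). RVE4 and RVE8, activators of evening genes, changed by 3.05 ± 0.13 and 2.21 ± 0.068. All libraries of 7 d lay above all of 2 d for these genes, and no difference of change from WT was called for them. ELF4 (-1.23 ± 0.23) and LUX (-0.51 ± 0.09), parts of the evening complex, and GI (-0.64 ± 0.14), an evening gene of the photoperiod pathway, were lower. ELF3, the scaffold of the evening complex, fell less in hda9-1 than in WT (-0.25 ± 0.052 against -0.93).

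Flowering genes were higher at 7 d in hda9-1 for 14 of 19 tested members, with 3 lower and a median of 0.69. SOC1, a floral integrator, had 315, 278 and 362 normalised counts at 7 d and 35.5, 39.0 and 46.2 at 2 d (2.95 ± 0.14), and SVP, a floral repressor, had 1299.7, 1179.8 and 1357 at 7 d and 192, 267 and 201 at 2 d (2.55 ± 0.12). FLC, another floral repressor, changed by 1.25 ± 0.09, and TOE2, an AP2-like repressor, fell (-1.49 ± 0.05). An activator and a pair of repressors thus rose side by side. AGL19, a floral activator repressed by Polycomb proteins, had 15.2, 12.99 and 16.9 at 7 d and 4.22, 2.44 and 2.50 at 2 d in hda9-1 and 5.46, 13.2 and 10.06 at 7 d and 0, 0 and 0 at 2 d in WT, so it stayed low in both. A difference of change from WT was called for 1 of the 19, SVP (-0.56 ± 0.19), and lost in 8 of 12 fits that left out 1 library. Over the 12 fits 0 to 2 members had a lower and 0 or 1 a higher change. Of the SPL genes, which time the change from juvenile to adult leaves, 3 of 9 tested were higher and 3 lower. These counts did not stand out from the 37.5% higher and 38.5% lower among all genes. SPL4 changed by 0.91 ± 0.16, SPL5 by -1.99 ± 0.29, SPL15 by -1.04 ± 0.22, and SPL9 by -0.028 ± 0.18, which was not called.

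Cell division genes were lower at 7 d in hda9-1 for 23 of 24 members, with a median of -1.11. CYCA1;1, a cyclin of S and G2 phase, had 332, 327 and 359 normalised counts at 7 d and 731, 605 and 600.1 at 2 d in hda9-1, against 297, 257 and 290.2 at 7 d and 1022, 962 and 886 at 2 d in WT. Its change was -0.92 ± 0.09 in hda9-1 and -1.76 in WT, a difference of 0.84 ± 0.13 (limma adjusted p = 7.72e-04). KN, the syntaxin of the dividing cell plate, changed by -1.17 ± 0.068 in hda9-1 and -1.76 in WT. CYCD3;2, a cyclin of the entry into the cycle, was the member that rose (0.70 ± 0.051). The change was higher in hda9-1 for 15 of the 24 and lower for none, against 12.2% and 16.4% of all genes. The count of 15 fell to 6 without replicate 1 of WT at 2 d, to 7 without replicate 1 of hda9-1 at 7 d, to 8 without replicate 2 of either genotype at 2 d and to 9 without replicate 3 of hda9-1 at 2 d. At 2 d all 24 were lower in hda9-1 than in WT, by a median of 0.31 on the log2 scale.

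Ribosomal protein and nucleolar genes showed the same order of genotypes at 2 d. In hda9-1, 7 of 15 members were lower at 7 d and 3 higher (median -0.16), whereas 13 were lower in WT and 1 higher (median -0.78). The change was higher in hda9-1 for 14 of the 15, against 12.2% of all genes. The site II element (TGGGCC on either strand), known from promoters of ribosomal and cell division genes, stood in the 250 bases before the start of 8 of the 15 (53.3%), against 16.2% of all tested genes with a window. In the cell division list it stood before 4 of 24 genes (16.7%), near the share of all genes. The windows of RPS6A (chr4:15347805-15348054, - strand) and RPL24B (chr3:19662026-19662275, - strand), which encode proteins of the small and large ribosomal subunit, are shown with the element in capitals (TAIR10.1, 5′ to 3′ on the gene's strand).
RPS6A: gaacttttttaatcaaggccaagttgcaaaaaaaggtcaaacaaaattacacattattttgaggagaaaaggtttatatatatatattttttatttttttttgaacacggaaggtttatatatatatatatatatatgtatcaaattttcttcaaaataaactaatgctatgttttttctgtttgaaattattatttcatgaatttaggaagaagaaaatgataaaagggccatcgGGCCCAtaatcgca
RPL24B: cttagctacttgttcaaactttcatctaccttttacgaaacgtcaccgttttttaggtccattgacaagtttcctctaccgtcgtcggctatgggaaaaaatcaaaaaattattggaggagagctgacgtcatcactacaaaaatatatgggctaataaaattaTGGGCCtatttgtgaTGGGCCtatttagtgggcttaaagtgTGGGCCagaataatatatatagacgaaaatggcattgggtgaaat

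RPS6A had 9426, 9381 and 9353 normalised counts at 7 d and 17910.1, 14870.2 and 13861 at 2 d in hda9-1, against 8801, 8106 and 8520.3 at 7 d and 24883, 25483 and 19768 at 2 d in WT. The libraries of 2 d were all lower in hda9-1 than in WT, while those of 7 d were higher in hda9-1. Its difference of change was 0.74 ± 0.14 (limma adjusted p = 0.0025). RPL24B changed by -0.47 ± 0.062 in hda9-1 and -1.12 in WT. RPS5B rose by 0.21 ± 0.065 in hda9-1, a call lost in 2 of 6 fits that left out 1 library, and fell in WT (-0.46). At 2 d all 15 members were lower in hda9-1, by a median of 0.50, and at 7 d 14 of 15 were higher, by a median over all 15 of 0.094 (log2).

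The type-A response regulators, which are induced by cytokinin and dampen its signal, were higher at 7 d in hda9-1 for 7 of 9 tested members, with 1 lower and a median of 1.63 (WT 0.93). ARR7 had 313, 246 and 242 normalised counts at 7 d and 32.1, 31.7 and 27.4 at 2 d in hda9-1, against 228, 198 and 181 at 7 d and 55.9, 57.8 and 50.7 at 2 d in WT. ARR15 had 36.6, 27.2 and 20.7 at 7 d and 6.76, 6.50 and 7.49 at 2 d in hda9-1, against 12.3, 15.1 and 12.9 at 7 d and 11.3, 12.6 and 8.33 at 2 d in WT. Both were lower in hda9-1 than in WT in all libraries of 2 d and higher in all of 7 d. The difference of change was 1.22 ± 0.19 for ARR7 (limma adjusted p = 0.001) and 1.54 ± 0.38 for ARR15 (limma adjusted p = 0.0098). A higher change in hda9-1 was called for 6 of the 9, against 12.2% of all genes. ARR3 was the member that fell (-0.91 ± 0.16).

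The PIFs are bHLH factors that promote elongation and are held in check by phytochromes. PIF4 had 2081, 2188 and 2188 normalised counts at 7 d and 1042, 1331 and 1396 at 2 d in hda9-1, against 3525, 3686 and 3601 at 7 d and 410.4, 378 and 623 at 2 d in WT. It was higher at 7 d in both genotypes, by 0.79 ± 0.10 in hda9-1 and 2.97 in WT, a difference of -2.18 ± 0.21 (limma adjusted p = 5.63e-05). In hda9-1 every 2 d library was above and every 7 d library below those of WT. PIF7 changed by 1.72 ± 0.20 in hda9-1 and 3.69 in WT, and UNE10, the PIF also called PIF8, by 2.97 ± 0.11 and 4.17. HFR1, a bHLH factor that blocks PIFs, changed by 0.38 ± 0.10 in hda9-1 and 1.92 in WT. HY5, a bZIP factor of light growth, rose more in hda9-1 (1.56 ± 0.12 against 0.99), a call lost in 5 of 12 fits that left out 1 library. PHYA, the photoreceptor that accumulates in the dark, fell by 1.59 on the log2 scale in hda9-1. Of the 23 genes of PIFs, photoreceptors and light signalling 13 were higher at 7 d in hda9-1 and 7 lower, and the change was lower than in WT for 10 and higher for 2. Only 1 was higher without replicate 1 or 3 of hda9-1 at 7 d, replicate 3 of hda9-1 at 2 d, replicate 3 of WT at 7 d or replicate 1 of WT at 2 d.

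Genes known as PIF and shade targets were mostly lower at 7 d in hda9-1, which was not the balance seen in WT. In hda9-1, 12 of 15 were lower at 7 d and 2 higher (median -1.22), while 7 were lower and 7 higher in WT (median 0.21). PIL1, a bHLH gene of shade response, had 58.9, 67.3 and 83.7 normalised counts at 7 d and 575, 731 and 670.0 at 2 d in hda9-1, against 205, 134 and 227 at 7 d and 385, 382 and 538 at 2 d in WT. HB2, a homeobox gene induced by shade, had 1259.5, 1442 and 1450.1 at 7 d and 944, 1095 and 1053 at 2 d in hda9-1, against 2502, 2594 and 2896 at 7 d and 520.0, 470.1 and 709.6 at 2 d in WT. Each 2 d library of hda9-1 was higher than each of WT for both genes, and each 7 d library was lower. The differences of change were -2.01 ± 0.28 for PIL1 and -1.83 ± 0.17 for HB2. The change was lower in hda9-1 for 14 of the 15, against 16.4% of all genes. At 2 d 14 of the 15 were higher in hda9-1 than in WT, by a median of 0.48, and at 7 d 1 was, with a median of -0.89 (log2, hda9-1 minus WT).

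YUC8, an enzyme of auxin synthesis that PIF4 activates, had 266, 318 and 278 normalised counts at 7 d and 693, 703 and 789.8 at 2 d in hda9-1, a change of -1.34 ± 0.089 (limma adjusted p = 2.78e-07). In WT it had 525, 515 and 514 at 7 d and 339, 310.3 and 448 at 2 d, a called rise of 0.52, and the difference was -1.86 ± 0.16 (limma adjusted p = 3.10e-05). IAA29, an auxin-induced repressor and PIF target, had 469, 562 and 495 at 7 d and 421, 477 and 539 at 2 d in hda9-1, with overlapping ages and no call, against 1517, 1643 and 1707 at 7 d and 284, 279.8 and 354 at 2 d in WT, a rise of 2.41. IAA19 fell in both and changed by -3.42 ± 0.13 in hda9-1 and -1.29 in WT. IAA6 had 15.2, 18.9 and 21.5 at 7 d and 122, 201 and 177 at 2 d in hda9-1 and changed by -3.09 ± 0.21, while the WT change of 0.76 was not called. IAA20 fell in both (-6.27 ± 0.17 and -6.26), with 8.03, 11.8 and 7.68 at 7 d and 800.0, 815 and 705 at 2 d in hda9-1 and a difference of -0.0098 ± 0.24 that was not called.

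Of 24 auxin response genes 10 were lower at 7 d in hda9-1, 3 higher and 11 not called (median -0.093), against 15 higher and 5 lower in WT (median 1.08). The change was lower in hda9-1 for 19 of them and higher for none, against 16.4% and 12.2% of all genes. SAUR22, one of a row of near-identical growth genes that can share reads, fell in hda9-1 (-0.65 ± 0.14) and rose in WT (1.22). IAA14, a repressor known from root branching, rose in both (1.56 ± 0.13 in hda9-1 and 2.34 in WT). At 2 d 21 of the 24 were higher in hda9-1 than in WT and at 7 d 2 were, with median differences of 0.69 and -0.37 on the log2 scale. Over all 21331 genes tested, hda9-1 was higher for 51.8% at 2 d and for 10045 at 7 d. Of 11 genes of auxin synthesis 6 were higher and 4 lower in hda9-1, and 7 of the 11 had no called difference of change from WT. At 2 d 6 of these 11 were higher in hda9-1 than in WT and at 7 d 6 were, with median differences of 0.20 and 0.092. YUC2 rose (1.26 ± 0.15), and YUC7 (-3.76 ± 0.32) and YUC3 (-1.32 ± 0.10) fell.

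**Figure D4:**
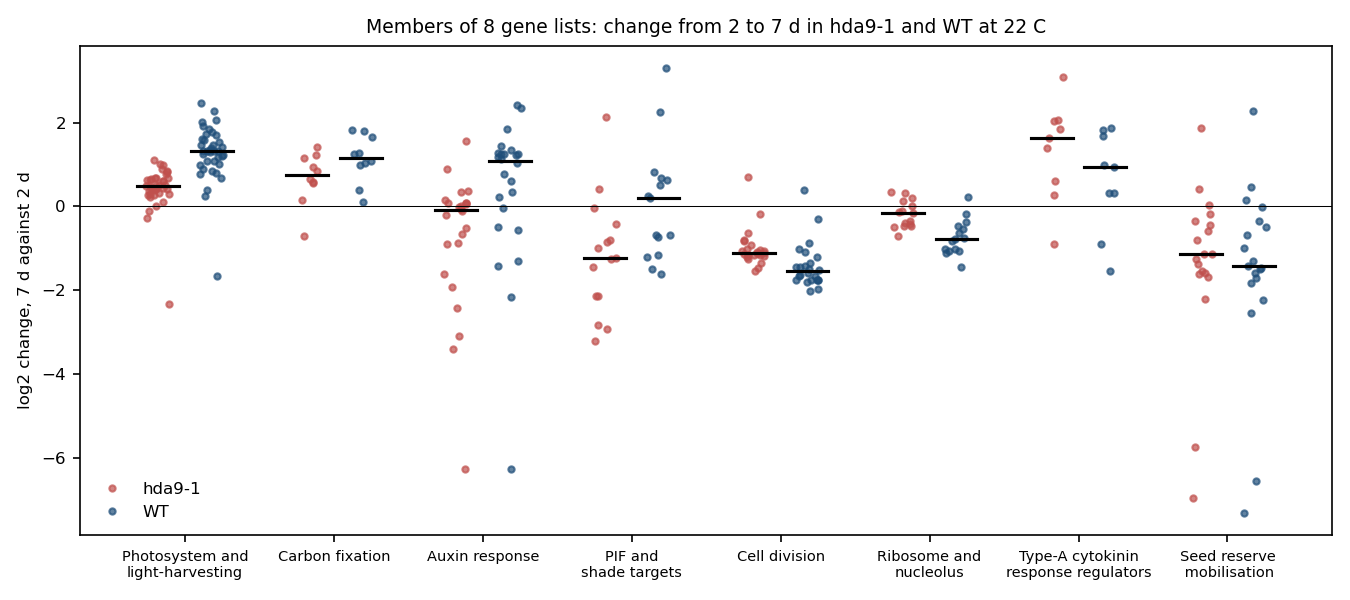
Each point is the log2 change from 2 d to 7 d of 1 member of the named list, in hda9-1 (red, left) and in WT (blue, right), and the bars mark medians. For photosystem, carbon fixation, auxin response and PIF and shade target genes the hda9-1 median is below that of WT. For cell division, ribosome and nucleolus, and type-A response regulator genes it is above, and for seed reserve mobilisation the medians are -1.14 and -1.43.

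Gibberellin genes were lower at 7 d in hda9-1 for 11 of 16 tested members and higher for 4 (median -0.87). GA20OX1, an enzyme of gibberellin synthesis, had 24.1, 31.9 and 26.1 normalised counts at 7 d and 321, 322 and 326 at 2 d in hda9-1, against 53.2, 69.9 and 53.2 at 7 d and 173, 155 and 192 at 2 d in WT. Its change was -3.52 ± 0.14 in hda9-1 and -1.55 in WT, a difference of -1.97 ± 0.20 (limma adjusted p = 8.31e-05). GA3OX1, the enzyme of the last step, fell in both (-2.29 ± 0.057 and -2.50), and GID1C, a receptor, rose (1.01 ± 0.083). The count of 4 higher members fell to 2 without replicate 3 of 7 d. Of 10 tested genes of abscisic acid 5 were higher and 3 lower, and without replicate 1 or 2 of 7 d 3 were higher. ABA1, the epoxidase of its synthesis, had 17885, 17086 and 18918 at 7 d and 2497, 3097 and 3368 at 2 d (2.60 ± 0.10), and NCED3, the stress-induced cleavage enzyme, changed by 1.44 ± 0.17 in hda9-1 and 3.16 in WT. NCED5 (-3.76 ± 0.42) and CYP707A1 (-1.11 ± 0.092), which breaks the hormone down, were lower. Synthesis and breakdown did not part by direction. ABA2, another gene of synthesis, was called lower, and CYP707A2 and CYP707A4, relatives of CYP707A1, were called higher. CYP707A4 had at least 10.6 in each 7 d library and at most 0.845 in each 2 d library. The CYP707A2 call was lost in 2 fits that left out 1 library.

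Cell wall genes of growth were lower at 7 d: 20 of 25 expansins and xyloglucan endotransglucosylase/hydrolases (XTHs), which loosen walls, were lower in hda9-1 and 4 higher (median -1.39). XTH33 had 71.4, 65.0 and 114 normalised counts at 7 d and 688, 776 and 794 at 2 d (-3.20 ± 0.18), and EXPA2, an expansin known from germinating endosperm, changed by -3.73 ± 0.43. EXPA1 (1.60 ± 0.081) and XTH24 (1.93 ± 0.14) were higher. EXPA16 had 326, 306 and 389 at 7 d and 153, 169.9 and 197 at 2 d in hda9-1, against 879, 1237 and 1485 at 7 d and 134, 147 and 151 at 2 d in WT, with the genotypes apart at 7 d, and its difference of change was -2.05 ± 0.23. For 13 of the 25 the change was lower in hda9-1 and for 5 higher, against 16.4% and 12.2% of all genes. The count of 5 was 8 without replicate 3 of WT at 2 d, and 3 without replicate 3 of hda9-1 at 7 d or replicate 2 of hda9-1 at 2 d. Of 15 genes of cellulose synthesis and xylem 7 were lower and 5 higher, and the change was lower in hda9-1 for 10, or for 6 without replicate 2 of WT at 2 d. XCP2, a protease of dying xylem cells, rose by 1.08 ± 0.11 in hda9-1 and 1.94 in WT, and LAC4, a laccase of lignin, by 0.97 ± 0.11 and 1.85.

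Flavonoid and anthocyanin genes were lower at 7 d in hda9-1 for 8 of 11 tested members (median -2.43). MYB75, the activator of anthocyanin genes, had 5.36, 3.54 and 3.07 normalised counts at 7 d and 122, 143 and 117 at 2 d in hda9-1, against 2.73, 3.78 and 2.87 at 7 d and 44.6, 46.3 and 37.9 at 2 d in WT. The 2 d libraries of hda9-1 were all higher than those of WT, and the difference of change was -1.29 ± 0.33 (limma adjusted p = 0.012). FLS1, a flavonol synthase, had 66.9, 41.3 and 49.1 at 7 d and 759, 636 and 618 at 2 d (-3.67 ± 0.16), and CHS, the entry enzyme, changed by -2.05 ± 0.082. Of the 11 tested, 5 reached 10 in every library of 2 d only, and without any 1 library of 2 d, 5 members were lower.

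Of 25 members of the root list 13 were lower at 7 d in hda9-1, 3 higher and 9 not called (median -0.33); without replicate 3 of 2 d, 5 were higher. The 3 that rose make suberin, the lipid barrier of the endodermis: GPAT5, an acyltransferase, CYP86A1, a fatty acid hydroxylase, and ASFT, a feruloyl transferase. CYP86A1 had 1360.4, 1194 and 1375 normalised counts at 7 d and 3.38, 8.13 and 25.0 at 2 d in hda9-1, a change of 7.01 ± 0.48 (limma adjusted p = 3.86e-07). Among those that fell were genes of root hairs, such as PRP3, a proline-rich wall protein, with 170.5, 124 and 87.5 at 7 d and 4288, 2615 and 2560.3 at 2 d (-4.63 ± 0.24), and LRX1, a wall protein of root hair tips (-3.69 ± 0.21). PYK10, a beta-glucosidase of root and hypocotyl, had 66269, 68473 and 73372 at 7 d and 217896, 210985 and 201599 at 2 d (-1.60 ± 0.10). CASP1, a gene of the Casparian strip (0.069 ± 0.083), and WOX5 of the stem cell niche (0.0031 ± 0.21) were not called.

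The 6 most negative differences of change from WT, among genes with a mean of at least 50 over the 12 libraries, were ABCG6, AT4G33610, AT1G55990, IRT1, PELPK2 and GPAT5. ABCG6, a transporter of suberin precursors, had 2106, 2086 and 2389.8 normalised counts at 7 d and 112, 218 and 507 at 2 d in hda9-1, against 1735.3, 2230.1 and 2172 at 7 d and 0, 2.104 and 15.9 at 2 d in WT. GPAT5 had 602, 608 and 744 at 7 d and 26.2, 51.2 and 148 at 2 d in hda9-1, against 549.8, 693 and 704 at 7 d and 0, 1.05 and 6.82 at 2 d in WT. IRT1, the iron importer of the root epidermis, had 2199, 1799 and 1678 at 7 d and 27.9, 39.8 and 101 at 2 d in hda9-1, against 2416, 1582 and 1579 at 7 d and 2.83, 0 and 0 at 2 d in WT. At 7 d the genotypes overlapped for these 3 genes, and at 2 d every hda9-1 library was above every WT library. The differences of change were -5.85 ± 1.05 for ABCG6 (limma adjusted p = 0.002), -4.93 ± 0.69 for IRT1 (limma adjusted p = 4.97e-04) and -4.56 ± 0.89 for GPAT5 (limma adjusted p = 0.003). The glycine-rich protein genes AT4G33610 (-5.55) and AT1G55990 (-5.49) and the wall protein gene PELPK2 (-4.60) had the same order of groups. Among the hda9-1 libraries of 2 d, replicate 1 was lowest and replicate 3 highest for all 6 genes, the order of these libraries on the first principal component. Each of the 6 differences stayed called when any 1 of the 12 libraries was left out, and the part of this spread in them was not otherwise tested. In WT at 2 d, where the first component set replicate 3 apart, replicate 3 was highest for 5 of the 6, and IRT1 had no read in it.

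Of 14 iron genes 7 were higher at 7 d in hda9-1 and 5 lower, against 37.5% and 38.5% of all genes. FRO2, the ferric reductase that works with IRT1, had 774, 587 and 563 normalised counts at 7 d and 89.5, 92.7 and 98.6 at 2 d (2.75 ± 0.12), and no difference from WT was called (-0.70 ± 0.25). BHLH38, a factor induced by iron shortage, rose (2.83 ± 0.34), and VIT1, the vacuolar importer that loads iron in seeds (-3.21 ± 0.41), and FER3, a ferritin (-1.23 ± 0.10), fell. Aquaporins, the water channels, were higher for 10 of 16 and lower for 2 (median 0.38). TIP2;1, a channel of the vacuole, changed by 0.76 ± 0.11 in hda9-1 and 2.19 in WT. For 9 of the 16 the change was lower in hda9-1 (14 without replicate 3 of WT at 2 d), against 16.4% of all genes. At 2 d 14 of the 16 were higher in hda9-1 than in WT, against 51.8% of all genes.

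The 6 most positive differences were SAG29, EPR1, AT3G52561, NAS3, FTM1 and MRN1. SAG29, a sugar transporter gene also known from senescence, had 9.82, 10.6 and 16.1 normalised counts at 7 d and 32.1, 30.1 and 41.2 at 2 d in hda9-1, against 1.36, 3.78 and 2.87 at 7 d and 142, 250.3 and 72.7 at 2 d in WT. It fell less in hda9-1, by 3.85 ± 0.56 (limma adjusted p = 6.28e-04). FTM1, a gene of the acyl carrier protein desaturase family, had 55.3, 49.6 and 47.6 at 7 d and 376, 264 and 272 at 2 d in hda9-1, against 58.7, 43.4 and 37.4 at 7 d and 2114, 2258 and 601 at 2 d in WT (2.39 ± 0.53). NAS3, a nicotianamine synthase, had 10.7, 20.08 and 9.21 at 7 d and 90.4, 43.9 and 56.1 at 2 d in hda9-1, against 8.19, 3.78 and 4.31 at 7 d and 239.9, 202 and 88.6 at 2 d in WT (2.55 ± 0.58). For SAG29 and FTM1 all hda9-1 libraries of 2 d lay under those of WT, whereas for NAS3 the highest of hda9-1 passed the lowest of WT. MRN1, the marneral synthase of a root triterpene pathway, had its gap at 7 d, with 381, 420.4 and 392 at 7 d and 0.845, 5.69 and 6.24 at 2 d in hda9-1, against 24.6, 47.2 and 27.3 at 7 d and 1.42, 0 and 1.51 at 2 d in WT. It rose more in hda9-1 (6.48 ± 0.44 against 4.16), and every 7 d library of hda9-1 was far above those of WT. The calls for MRN1 and AT3G52561 (2.78) were lost in 5 and 7 of 12 fits that left out 1 library.

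**Figure D5:**
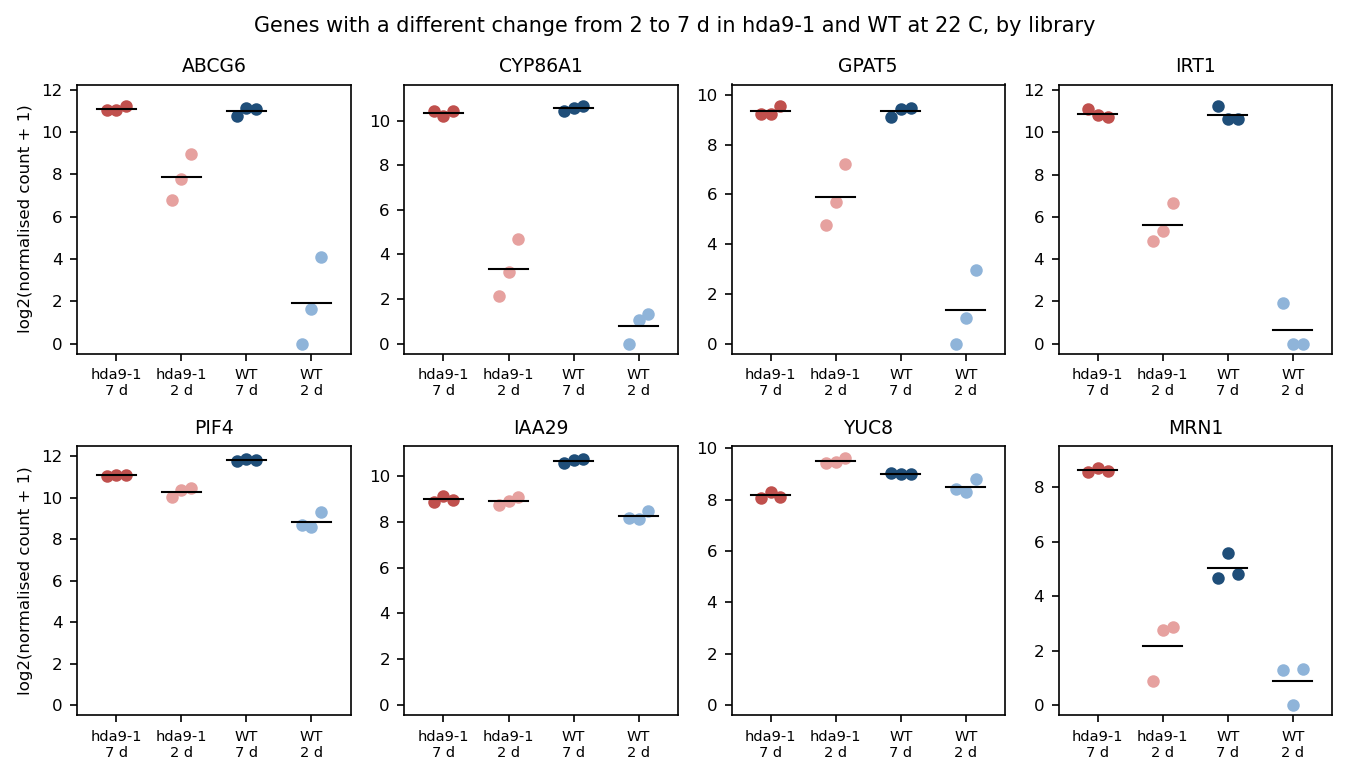
Points give log2(normalised count + 1) of 8 genes whose change from 2 d to 7 d differed between the genotypes, in the 3 libraries of each group, with bars at group means. For ABCG6, CYP86A1, GPAT5 and IRT1 the genotypes lie close at 7 d and hda9-1 is above WT at 2 d. For PIF4, IAA29 and YUC8 hda9-1 is above WT at 2 d and below it at 7 d, and for MRN1 the 7 d libraries of hda9-1 stand at 381 to 420 normalised counts.

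Over all 6097 genes with a called difference, the gap between hda9-1 and WT was larger at 2 d than at 7 d for 73.5% of the 2605 with a higher change in hda9-1 and for 70.2% of the 3492 with a lower one, against 63.2% of all 21331 genes tested. The change was smaller in size in hda9-1 than in WT for 65.8% of the first and 59.9% of the second, against 58.8% of all genes tested.

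Defence genes were called in both directions, and their counts stand against 37.5% higher and 38.5% lower among all genes. Of 11 tested genes of salicylic acid defence 6 were higher at 7 d in hda9-1 and 2 lower; without 1 library of 7 d, 2 or 3 were higher, since 3 of the 11 reached 10 in every library of 7 d only, and without 1 of 2 d, 1 was lower. PR5, a pathogenesis-related protein, had 72.3, 53.1 and 75.2 normalised counts at 7 d and no read at 2 d in hda9-1, at least 23.0-fold higher against 3 reads per library. PR1, the classical marker of the pathway, had 0.893, 1.18 and 0 at 7 d and 12.7, 19.5 and 19.96 at 2 d in hda9-1, against 0, 0 and 0 at 7 d and 2.12, 0 and 0.757 at 2 d in WT, so it was low throughout and above 10 in the 2 d libraries of hda9-1. Of 11 jasmonate genes 5 were higher and 4 lower, near the shares of all genes and not read as a result about the list. LOX2, a lipoxygenase of jasmonate synthesis, had 529, 526 and 520.5 at 7 d and 33.8, 35.8 and 59.9 at 2 d in hda9-1, against 381, 404 and 384 at 7 d and 5.66, 4.21 and 6.82 at 2 d in WT. Its rise was smaller in hda9-1 (difference -2.29 ± 0.28, limma adjusted p = 2.49e-04). ST2A, a sulfotransferase that inactivates hydroxyjasmonate and responds to shade, had 520.4, 524 and 664 at 7 d and 4578, 5489 and 5179 at 2 d in hda9-1 (-3.16 ± 0.10), while in WT the change of -0.10 was not called.

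Glucosinolates are sulfur compounds against herbivores, and 9 of 12 tested genes of their synthesis and activation were higher at 7 d in hda9-1 and 3 lower (median 0.93). Of the 12 tested, 3 reached 10 in every library of 7 d only, MAM1 and CYP83A1 among them. These passed the filter through the age at which they were high, and their count is a description. MAM1, which lengthens methionine side chains, had 75.0, 59.1 and 62.2 normalised counts at 7 d and 7.60, 9.75 and 11.2 at 2 d in hda9-1, against 222, 172 and 394 at 7 d and 7.08, 7.36 and 5.30 at 2 d in WT. CYP83A1, of the same aliphatic branch, had 46.4, 34.2 and 36.8 at 7 d and 2.53, 1.63 and 1.25 at 2 d in hda9-1, against 183, 123 and 315 at 7 d and 2.12, 3.16 and 3.03 at 2 d in WT. At 7 d every hda9-1 library lay below every WT library for both, and the differences of change were -2.38 ± 0.38 and -1.83 ± 0.46. Of 10 tested senescence genes 6 were higher and 2 lower. NAP, a NAC factor that promotes leaf senescence, changed by 1.12 ± 0.13 in hda9-1 and 3.17 in WT, with 219.6, 264 and 336 at 2 d in hda9-1 and 50.9, 54.7 and 146 at 2 d in WT. ORE1, another NAC factor of senescence, changed by 2.94 ± 0.25.

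Of 16 genes of stomata and guard cells 11 were lower at 7 d in hda9-1 and 4 higher (median -0.98). SPCH, the bHLH factor that starts the lineage, had 204, 201 and 195 normalised counts at 7 d and 402, 361 and 332 at 2 d (-0.86 ± 0.093), BASL, which polarises its divisions, changed by -2.26 ± 0.13, and MUTE, which ends them, by -1.66 ± 0.21. The genes that rose were FAMA, which completes guard cells (0.59 ± 0.07), the guard cell anion channel SLAC1 (0.97 ± 0.28), the kinase HT1 (1.01 ± 0.14) and STOMAGEN (0.52 ± 0.074). Not all guard cell genes rose. KAT1, another guard cell channel, was called lower, a call lost in 5 fits that left out 1 library, and MYB60 was not called. SPCH fell less in hda9-1 than in WT, by 0.92 ± 0.15 (limma adjusted p = 0.0013). Of 32 tested genes of the shoot meristem and leaf 16 were lower, 4 higher and 12 not called. GL1, a trichome factor, had 28.6, 31.9 and 39.2 at 7 d and 1.69, 2.44 and 0 at 2 d (4.01 ± 0.47). It passed the filter through 7 d only. GL3, another trichome factor, was called lower, a call lost in 4 fits that left out 1 library. AS1, a leaf MYB factor (-1.10 ± 0.067), TCP3 (-1.83 ± 0.15) and GRF2, a growth-regulating factor (-1.82 ± 0.10), fell, and the coactivator AN3 (0.54 ± 0.083) rose. Of 11 tested heat shock genes 5 were lower and 1 higher, GOLS1, a galactinol synthase (2.16 ± 0.10).

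Few histone deacetylase genes were called in hda9-1: of 14 tested members of the list, HDA9 included, 4 were higher, 1 was lower and 9 were not called, against 76% called among all genes. HDA8 had 1672, 1624 and 1632 normalised counts at 7 d and 828, 884 and 969 at 2 d (0.88 ± 0.065), HDA5 changed by 1.04 ± 0.068 and HDA14 by -0.45 ± 0.06. HDA6 (0.036 ± 0.06), HDA19 (0.10 ± 0.047) and HOS15 (-0.082 ± 0.049), a partner of HDA9, were not called in hda9-1. In WT 4 of the 14 were higher and 7 lower. The change was higher in hda9-1 than in WT for 6 and lower for none, against 12.2% and 16.4% of all genes. Leaving out 1 library gave 5 or 6 higher and 0 or 1 lower. HDA19 had a called difference of change, which was lost in 7 of 12 fits that left out 1 library. Genes of the histone variant H2A.Z were divided: HTA9 rose (0.66 ± 0.05), and HTA8 (-0.86 ± 0.079) and HTA11 (-0.87 ± 0.061) fell. Of the remodellers that move it, ARP6 (0.52 ± 0.064) and INO80 (0.99 ± 0.057) rose and PIE1 (-0.31 ± 0.058) fell. INO80 was the 1 gene of these 7 with a called difference of change from WT (-0.36 ± 0.10); there were 2 without replicate 3 of hda9-1 at 7 d or replicate 3 of WT at 2 d.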

How the data were processed

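RNA was sequenced from whole seedlings of 36 libraries in 12 groups of 3, grouped by genotype, age and temperature as labelled, and 12 libraries were used here. Libraries were prepared with a TruSeq kit and read as single ends of 50 bases on a HiSeq2500, per the labels' protocols. FastQC, TopHat2, Bowtie, HTSeq and DESeq and the TAIR10 build are named per the submitters' processing notes, and the setting for strand is not given in the sources used here, so overlapping or antisense genes cannot be told apart. The deposited signal values are read counts per gene that the authors divided by a size factor per library; which libraries were scaled together is not given in the sources used here. Multiplied back, 100% of the values were whole reads within 0.01. Reads that aligned to more than 1 place were 6.23 to 6.92% and ambiguous reads 0.952 to 1.04% of the reads in the hda9-1 libraries, so near-identical genes (LHCB1, RBCS, SAUR19 to SAUR24, seed storage albumins) remain uncertain.

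Changes were fitted with limma 3.58.1 in R 4.3.3 (linear model with an intensity trend) on log2(value + 1), for genes with at least 10 in 3 or more libraries of the fit, and p-values were adjusted by Benjamini-Hochberg over all genes tested. The change in hda9-1 came from its 6 libraries; the change in WT and the difference of change (interaction of genotype and age) from the 12 libraries. Alternatives were edgeR 4.0.16 and DESeq2 1.42.0 on recovered reads, TMM scaling, a pseudocount of 8, no filter, all 36 libraries in the fit, a block for replicate number and leaving out each library. Fits were tested on simulated data. A fold against an age with no reads was computed against 3 reads in each library, and counting error only is covered. The filter thus asks that the lowest of the 3 highest values be at least 10; it was 10.14 for the gene just inside and 9.98 for the gene just outside, and of the 12676 genes outside, 7512 had no read in the 6 libraries.

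The comparison, the 35 gene lists (592 genes, 542 tested in hda9-1) and the motifs were chosen with earlier results of these data known. Genes were named by rule: genes marked in the lists, the 10 largest called rises and falls with a mean of at least 50 and no overlap, the 6 largest differences in each direction, the 3 largest called rises and falls of each list and its 2 smallest p for the difference. ARR15, GA3OX1, PYK10, SESA5 and STOMAGEN were named after their values were seen. Symbols, annotations and promoter windows were read from RefSeq TAIR10.1, in which 32835 of 33540 gene identifiers were found; coordinates are in that build. Motifs were searched on both strands.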

Additional observations from a re-analysis of the deposited data

Results flagged for a closer look

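These 12 genes had the 6 most negative and the 6 most positive called differences of change from 2 d to 7 d between hda9-1 and WT among genes with a mean of at least 50 over the 12 libraries, by the test of the difference itself (limma, interaction of genotype and age). The difference is the change in hda9-1 minus that in WT, on the log2 scale. It was -5.85 for ABCG6 (limma adjusted p = 0.002), -5.55 for AT4G33610 (8.45e-04), -5.49 for AT1G55990 (0.0023), -4.93 for IRT1 (4.97e-04), -4.60 for PELPK2 (4.04e-04) and -4.56 for GPAT5 (0.003). All 6 genes were higher at 7 d in both genotypes, and the hda9-1 libraries of 2 d stood above those of WT. It was 3.85 for SAG29 (limma adjusted p = 6.28e-04), 2.94 for EPR1 (0.044), 2.78 for AT3G52561 (0.037), 2.55 for NAS3 (0.0062), 2.39 for FTM1 (0.0058) and 2.32 for MRN1 (0.025). AT3G52561, which encodes an uncharacterised protein, had 8.93, 9.45 and 9.21 normalised counts at 7 d and 83.6, 43.9 and 53.7 at 2 d in hda9-1, against 4.09, 11.3 and 0 at 7 d and 213, 179 and 103 at 2 d in WT. No explanation of these differences was tested.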

How the results depend on the processing

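Of 102 recounts of the 6 numbers of called genes, 100 stayed within 1.5 times of the reported number. Leaving out 1 library gave 6981 to 7758 genes higher and 7318 to 7669 lower at 7 d in hda9-1, and 7950 to 8346 higher and 8034 to 8482 lower in WT. It gave 1724 to 3333 with a higher and 2543 to 4466 with a lower change in hda9-1 than in WT, against 2605 and 3492 with all libraries. The lowest numbers came without WT replicate 2 of 2 d (without WT replicate 1 of 2 d, 1728 were higher) and the highest without WT replicate 3 of 2 d. The other settings gave 7548 to 8280 and 7617 to 8418 in hda9-1, 8141 to 8703 and 8118 to 8885 in WT, and 2151 to 2981 and 3045 to 3947 for the difference. Replicate numbers did not pair the libraries throughout. The lowest correlation of same-numbered deviations was -0.058 between the ages of hda9-1 and 0.035 between those of WT. Between the ages of WT each library was nonetheless closest to its own number. Between hda9-1 and WT at 2 d the correlations were 0.33, -0.097 and 0.33 for replicates 1, 2 and 3, and at 7 d 0.080, 0.039 and 0.18. Whether libraries of the same number shared a batch was not tested. With a replicate block there were 7753 higher and 7956 lower in hda9-1, 8388 and 8574 in WT, and 2972 higher and 3947 lower differences. Of 7262 recomputed changes of 569 listed genes in hda9-1, 141 lost and 51 gained the call; of 10970 recomputed differences of 578 genes, 667 lost and 191 gained it. The difference of OLEO3 turned to 0.50 with a pseudocount of 8, against -0.19; the cause was not tested. Of 2240 recounts within lists 192 moved by more than 1.5 times, mostly where a library was left out. Limits are the 3 pools per group, the wider spread among libraries of 2 d, 1 time of day and low counts, at which log2(value + 1) shrinks changes.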

Other observations

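PDF1.2, a plant defensin of the jasmonate and ethylene pathway, did not reach the filter and was uneven, with 19.6, 0 and 96.7 normalised counts at 7 d and 0 in every library of 2 d in hda9-1, and 0 in every WT library. Replicates of 2 d mostly differed more than those of 7 d. The chi-square per degree of freedom over genes was 4.60 to 6.50 between hda9-1 libraries of 7 d and 7.92 to 22.6 between those of 2 d, against 2.92 to 4.35 between WT libraries of 7 d and 3.18 to 30.3 between those of 2 d. The 10 genes with the most reads took 7.40 to 7.56% of the reads in genes in hda9-1 at 7 d and 5.09 to 5.86% at 2 d. Genes of the chloroplast genome took 0.0261 to 0.0280% at 7 d and 0.0145 to 0.0163% at 2 d.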
